A study of Mus musculus and synthetic RNA with 74 samples.

Results

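Mettl16 encodes METTL16, the RNA methyltransferase whose gene was disrupted in the knockout embryos of the study, and the data described are its gene-level value and the values of every exon and intron of its transcript. The gene has 1 row in each gene table, out of 20330 rows at E2.5 and 21199 rows at E3.5. Its only transcript in the exon and intron tables, RefSeq NM_026197, has 10 exon rows and 9 intron rows out of the 624032 exon and intron rows of each stage. The rows were chosen by the name of the gene, and no measured value was used to choose them.

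The embryos came from crosses between mice heterozygous for the Mettl16 knockout allele, and poly(A) RNA of single embryos was amplified with Smart-seq2, a protocol that makes cDNA from whole transcripts and keeps no strand. The 31 morulae of embryonic day 2.5 (E2.5) comprised 5 wild-type (WT), 14 heterozygous (HET) and 12 homozygous knockout (KO) embryos. The 39 blastocysts of E3.5 comprised 18 WT, 9 HET and 12 KO embryos. The allele was made in B6D2F1/J zygotes, a hybrid of C57BL/6J and DBA/2J, and the founders were bred to C57BL/6JRj mice. Embryos of line #2112, which carries a triple-stop codon cassette in exon 3, were sequenced in all groups.

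METTL16 places N6-methyladenosine (m6A) on structured RNA, by itself, whereas METTL3 and METTL14 methylate most m6A sites of mRNA as a pair. Its known substrates are the U6 small nuclear RNA and hairpins in the mRNA of Mat2a, which encodes the enzyme that makes the methyl donor S-adenosylmethionine. A premature stop codon far upstream of the last exon junction usually exposes an mRNA to nonsense-mediated decay, a pathway that acts after splicing and so leaves unspliced nuclear RNA in place.

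The values used are means over all embryos of a stage, with the 3 genotypes pooled, as given by the authors. No value of a single embryo or genotype was used, so no error, interval or test can be attached to them, the residual RNA of the knockout allele cannot be separated from that of the wild-type allele, and the pooled means do not show the depth behind each value, for which the study's list of reads per library was not used here. The mix of alleles differed between the stages. Wild-type alleles were 24 of 62 alleles at E2.5 (38.7%) and 45 of 78 at E3.5 (57.7%), and KO embryos were 38.7% and 30.8% of the embryos. Any difference in the pooled mean between stages therefore cannot be told apart from the difference in genotype mix. Nor can less Mettl16 RNA in each cell be told apart from a smaller fraction of cells that hold it, since each library is a single embryo. Each stage and each kind of table was normalized by itself, so levels are compared within a stage, and ratios between stages are read against the same ratio over all features.

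The gene lies on the plus strand of chromosome 11 (mm10, GRCm38), and the RefSeq transcript runs from the first base of exon 1 at 74770863 to the last base of exon 10 at 74818692. It has 2718 bases of exon and 45.1 kb of intron. Exon 1 (122 bases) is wholly 5′ untranslated and the coding sequence begins with the first base of exon 2. Exon 10 (1534 bases) holds 600 coding bases and 934 bases of 3′ untranslated sequence, and the other exons are wholly coding. All 9 introns begin with GT and end with AG in the reference genome.

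Exon 3, into which the cassette was placed, is shown because the alleles differ there. It spans chr11:74784058-74784257 on the plus strand and is printed 5′ to 3′ from the reference genome.
Exon 3: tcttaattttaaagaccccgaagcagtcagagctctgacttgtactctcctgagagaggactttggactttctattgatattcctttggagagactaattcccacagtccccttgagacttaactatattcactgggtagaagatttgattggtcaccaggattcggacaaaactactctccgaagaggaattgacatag

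The cassette lies after base 159 of the 200 bases of exon 3, between positions 74784216 and 74784217. The lines below give the reference allele with 24 bases on each side of that point and the knockout allele assembled from the same bases and the cassette, which is in capitals.
Wild-type allele: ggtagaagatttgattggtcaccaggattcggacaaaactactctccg
Knockout allele: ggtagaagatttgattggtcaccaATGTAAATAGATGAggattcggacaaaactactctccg
The 14 bases of the cassette hold TAA from base 4, TAG from base 8 and TGA from base 12, 1 stop in each of the 3 frames. The coding sequence has 287 bases before the cassette, so TAG is the first stop in the Mettl16 frame, and 98 codons precede it instead of the 553 of the wild-type sequence. 7 exons follow exon 3 in the transcript. The study assigned each embryo's genotype from reads that cross this point of exon 3 with or without the cassette, so the groups rest on reads of exon 3 itself.

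At the gene level the pooled mean of Mettl16 was 778 normalized counts at E2.5 and 669 at E3.5. The gene ranked 3823rd of the 20330 genes at E2.5, above 81.2% of them, and 5080th of the 21199 genes at E3.5, above 76.0% of them. The E3.5 mean was 86.1% of the E2.5 mean, while the median gene had 1.46 times its E2.5 mean among the 11774 genes with a mean of at least 10 at both stages. Mettl16 thus took a lower place among all genes in the blastocysts.

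Per kb of transcript, Mettl16 stood at 286 normalized counts at E2.5 and 246 at E3.5. It was the 4th highest of 14 RNA methyltransferase and cofactor genes at E2.5 and the 6th highest at E3.5. Above it at both stages were Trmt112 with 3025 and 4879 per kb, which encodes the activating partner of several methyltransferases, Wtap with 2236 and 2107, which encodes the adaptor of the METTL3 complex, and Mettl5 with 656 and 999, which encodes the enzyme that methylates 18S rRNA. The catalytic subunit gene Mettl3 had 245 per kb at E2.5 and 360 at E3.5, and the gene of its partner, Mettl14, had 230 and 106. Mettl16 therefore lay close to both at E2.5, and at E3.5 it lay between them.

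Zc3h13, which encodes another member of the METTL3 complex, had 224 and 363 per kb, and Virma, which encodes its scaffold subunit, had 141 and 189. Cbll1, which encodes the HAKAI subunit, had 220 and 61.8 per kb. Rbm15, which encodes an RNA-binding subunit that guides the complex, had 38.3 and 128, and its paralog Rbm15b had 28.3 and 112. The remaining genes, Mettl4 (128 and 118), Zcchc4 (77.4 and 72.0), the gene of the 28S rRNA methyltransferase, and Pcif1 (64.3 and 94.4), the gene of the cap-adjacent methyltransferase, were below Mettl16 at both stages. Mat2a had 10361 normalized counts per kb at E2.5 and 1663 at E3.5.

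**Figure D1:**
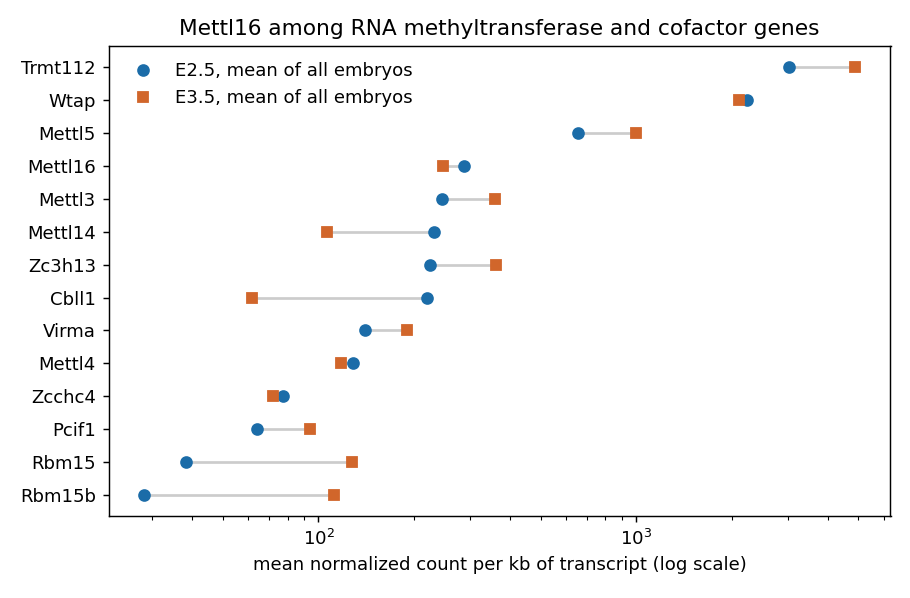
Pooled mean per kb of transcript (log scale) of Mettl16 and 13 other genes of RNA methyltransferases and their cofactors, with circles for E2.5 and squares for E3.5. Mettl16 is 4th from the top at E2.5 with 286 per kb and 6th at E3.5 with 246.

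The tissue labels were checked with marker genes. All 10 markers of morula and blastocyst cells had means of at least 10 at both stages, from 13.6 (Sox2) to 113890 (Dppa3) at E2.5 and from 165 to 122006 at E3.5. Of 6 markers of cumulus cells, 4 had a value at E2.5 and 5 at E3.5, with Ptx3 absent at both stages and Fshr at E2.5. None of those with a value reached 10, and their highest mean was 7.32 (Tnfaip6). Of 5 blood markers, Hbb-b1 had no value at E2.5. Among those with a value, 1 reached 10 at E2.5 (Hba-a1, 49.6) and 2 at E3.5 (Hba-a1, 11.97, and Alas2, 13.4), and Ptprc was at 0.316 and 1.34. Of 3 oviduct and uterine markers, Ovgp1 had 320 and 25.3, Ltf 129 and 0.0363, and Foxj1 0.337 and 0.065. Whether these add to any value of Mettl16 was not tested.

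The exons of Mettl16 did not carry equal RNA. At E2.5 exons 1 to 4 had 89.0, 97.1, 131 and 127 normalized counts, which is 729, 758, 657 and 902 per kb of exon. Exons 5 to 9 had 131, 145, 102, 109 and 137 normalized counts, or 1127, 1012, 1458, 1211 and 786 per kb. Exon 10 had 367 normalized counts but only 240 per kb. At this stage the 5′ exons thus lay somewhat below the middle ones, and the long terminal exon lay lowest, with exon 7 at 6.08 times its level.

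At E3.5 the same exons had a steeper profile. Exons 1 to 4 had 24.3, 19.7, 28.1 and 36.3 normalized counts, or 200 (exon 1), 154, 140 and 258 per kb. Exons 5 to 9 had 62.9, 103, 87.3, 73.9 and 81.5 normalized counts, or 542, 720, 1247, 821 and 468 per kb. Exon 10 had 366 normalized counts and 239 per kb. Here the lowest exon by annotated length was exon 3, the exon that holds the cassette in the knockout allele, and exon 7 was at 8.89 times its level.

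**Figure D2:**
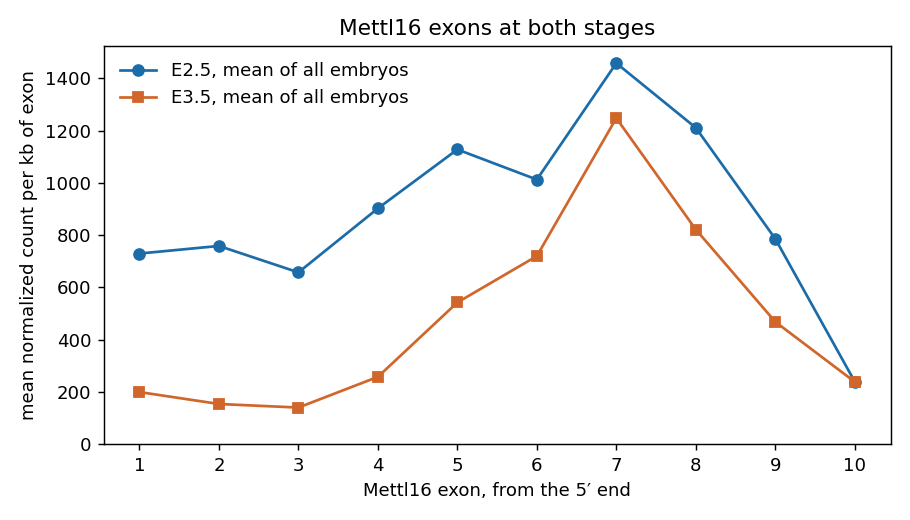
Pooled mean normalized count per kb of each of the 10 Mettl16 exons, numbered from the 5′ end, with circles for E2.5 and squares for E3.5. Exons 1 to 4 lie between 657 and 902 per kb at E2.5 and between 140 and 258 at E3.5, while exon 10 is at 240 and 239.

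A scale factor common to all embryos of a stage leaves the shares of the exons within that stage unchanged. The scaling of each embryo still sets its weight in the mean. Exons 1 to 4 held 31.0% of the summed exon counts at E2.5 and 12.3% at E3.5. Exons 5 to 9 held 43.4% and 46.3%, and exon 10 held 25.6% and 41.5%. The share of the first 4 exons was thus smaller at E3.5 and that of the terminal exon larger.

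Set exon by exon, the E3.5 mean was 27.4% of the E2.5 mean in exon 1, 20.3% in exon 2, 21.3% in exon 3 and 28.6% in exon 4. It was 48.1% in exon 5, 71.1% in exon 6 and 85.6% in exon 7. It was 67.8% in exon 8, 59.6% in exon 9 and 99.6% in exon 10. On the log2 scale these ratios range from -2.30 in exon 2 to -0.01 in exon 10, against a median of -0.41 over 74561 exons with a mean of at least 10 at both stages. Exons 1 to 5 lay below that median by more than 0.5, and exons 7 and 10 lay above it.

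A lower 5′ end at E3.5 was common to the genes of these tables. In 375 genes, Mettl16 included, the longest transcript has 10 exons and a summed exon mean of at least 200 at both stages. Their median log2 ratio was -1.38 for the first exon, -1.17 for exon 3, -0.92 for exon 5, -0.30 for exon 9 and 0.42 for exon 10. Mettl16 lay at the 24.8th percentile of these genes in exons 2 and 3, at the 32.0th in exon 4, at the 48.5th in exon 5 and at the 61.6th in exon 7. In exon 8 it lay at the 49.1st percentile, in exon 9 at the 37.3rd and in exon 10 at the 36.3rd. Its values at exons 2 and 3 were thus near the lower quartile, -2.28 and -2.23, of what exons at the same place of other genes had.

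**Figure D3:**
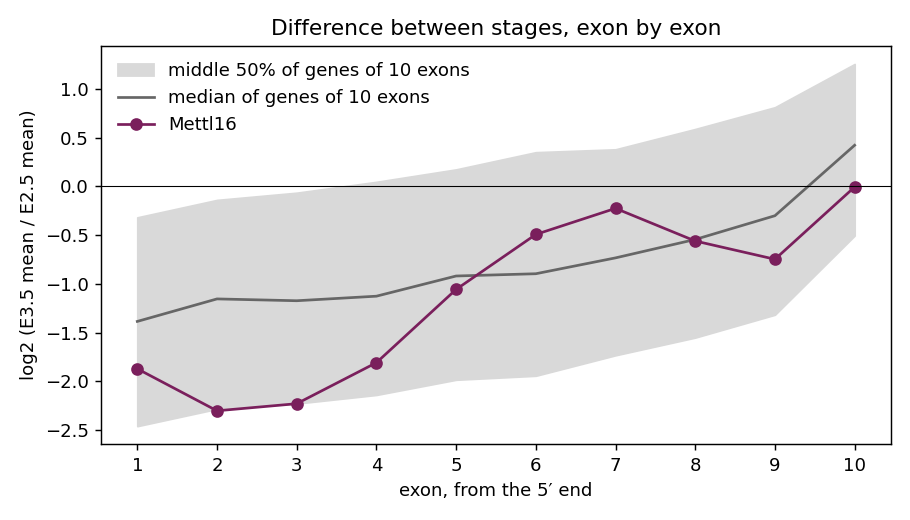
Log2 ratio of the E3.5 to the E2.5 pooled mean for each exon of Mettl16 (points) and, as a line and a grey band, the median and the range between the 25th and 75th percentiles of 375 genes of 10 exons. These genes have summed exon means of at least 200 at both stages. Mettl16 runs from -2.30 in exon 2 to -0.01 in exon 10. It lies below the median line in exons 1 to 5 and 8 to 10 and above it in exons 6 and 7.

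The same was described with 1 number, the log2 ratio of the level per kb of exons 1 to 3 to that of exons 7 to 9 (in other genes, equal numbers of exons from both ends, leaving out the terminal exon). For Mettl16 it was -0.56 at E2.5, from 706 against 1041 per kb, and -2.18 at E3.5, from 160 against 727 per kb. Over 4260 genes with at least 8 exons and summed exon means of at least 200 at both stages, the median was -0.60 at E2.5 and -1.53 at E3.5. Mettl16 lay at the 52.3rd percentile in morulae and at the 30.5th in blastocysts. The difference between stages was -1.62 for Mettl16 against a median of -0.91, at the 21.0th percentile of all these genes and the 13.6th of the genes of 10 exons.

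Among the listed methyltransferase and cofactor genes, 7 had such a ratio, and it was lower at E3.5 in 5 of them and higher in 2. Over the 4260 genes the upper quartile of the difference between stages was -0.32, so the ratio was lower at E3.5 in most of them too. Zcchc4 differed between stages by -1.63, Mettl3 by -1.92, Mettl4 by -1.25, Virma by -1.19 and Zc3h13 by -0.50. Mettl14 differed by 0.38 and Pcif1 by 0.53. Mat2a differed by -0.30. The value of Mettl16 was within the range of these genes.

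Exon 3 was compared with the other exons of the transcript, since it is the exon that the cassette interrupts. Its level per kb was 72.9% of the median of the other 9 exons at E2.5 (657 against 902) and 30.0% at E3.5 (140 against 468). Against the mean of exons 2 and 4 alone it was 79.2% and 68.2%. Exon 3 was thus below its 2 neighbours at both stages, and exons 1, 2 and 4 were, like it, below the median exon at E3.5. Adding 80 bases to each length, for reads that overlap an exon only in part, put exon 3 at 470 per kb at E2.5, just above exons 1 (441) and 2 (467), and at 100.2 at E3.5, above exon 2 (94.7). Its place as the lowest of the first 4 exons therefore depended on how length was counted.

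Short exons gain most from reads that overlap them in part. Exon 7 has 70 bases, exon 8 has 90 and exon 10 has 1534. With 80 bases added, exon 7 was at 680 per kb at E2.5 and 582 at E3.5, still the highest exon at both stages, while exon 10 was at 228 and 227. The ratio of 1 exon between stages is the same with either length.

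The terminal exon has several ends in the annotation. 6 model transcripts of RefSeq were considered beside NM_026197, and the longest terminal exon among them ends at 74826855, which gives it 9697 bases instead of 1534. 3 of these 6 models do not hold exon 4. Reads of the longer end are not in the rows described here, and splice junctions were not analysed here.

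The introns carried far less RNA per base than the exons. The 9 introns summed to 148 normalized counts at E2.5 and 299.7 at E3.5, and the 10 exons to 1435 and 883. Per kb, introns had 3.30 and exons 528 in the morulae, while the blastocysts had 6.67 and 325. Introns thus had 0.624% of the exon level at E2.5 and 2.05% at E3.5.

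The first 2 introns held most of the intron RNA, 63.8% at E2.5 and 54.9% at E3.5. Intron 1 (2537 bases) had 44.2 and 34.1 normalized counts, or 17.6 and 13.6 per kb. Intron 2 (10408 bases), just upstream of exon 3, had 50.2 and 130 normalized counts, or 4.84 and 12.5 per kb. Intron 1 was the only intron with a lower mean at E3.5 than at E2.5, and intron 2 had the largest sum at both stages.

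Of the introns downstream of exon 3, intron 3 had 4.49 and 6.74 normalized counts (1.37 and 2.06 per kb) and intron 4 had 6.43 and 25.2 (1.43 and 5.62 per kb). Intron 5 had 11.3 and 13.9 (3.10 and 3.82 per kb) and intron 6 had 16.96 and 61.7 (2.21 and 8.03 per kb). Intron 7 had 5.55 and 17.95 (4.16 and 13.5 per kb). In these the E3.5 mean ranged from 1.23 times the E2.5 mean in intron 5 to 3.92 times in intron 4.

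Intron 8, the longest with 11527 bases, had 8.69 and 9.08 normalized counts, or 0.755 and 0.789 per kb, the lowest level of all introns at both stages. Intron 9, with 115 bases, had 0.304 and 0.597 normalized counts, so that its 3.20 and 6.28 per kb rest on very few reads. Over 20752 introns with a mean of at least 10 at both stages the median ratio of E3.5 to E2.5 was 1.49. Of the 4 Mettl16 introns that pass that minimum, intron 1 (0.772), intron 2 (2.59), intron 5 (1.23) and intron 6 (3.64), 2 lay above this median and 2 below.

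Each intron was also set against the mean level per kb of the exons on either side, which needs no scaling between stages. Intron 1 had 2.36% of its flanking exons at E2.5 and 7.68% at E3.5. Intron 2 had 0.683% and 8.53%, the widest gap between the stages. The introns from 3 to 9 had between 0.0757% (intron 8) and 0.624% (intron 9) at E2.5 and between 0.122% (intron 8) and 1.78% (intron 9) at E3.5. The share was larger at E3.5 in all 9 introns, by 1.62 times in intron 8 up to 12.5 times in intron 2. The flanking exons of introns 1 to 4, exons 1 to 5, were the exons with the lowest E3.5 means relative to E2.5. In introns 2 to 4 the intron mean was also higher at E3.5, whereas in intron 1 it was lower. Unlike the share, these means depend on how each stage was scaled, so the parts of intron and exons were not separated.

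**Figure D4:**
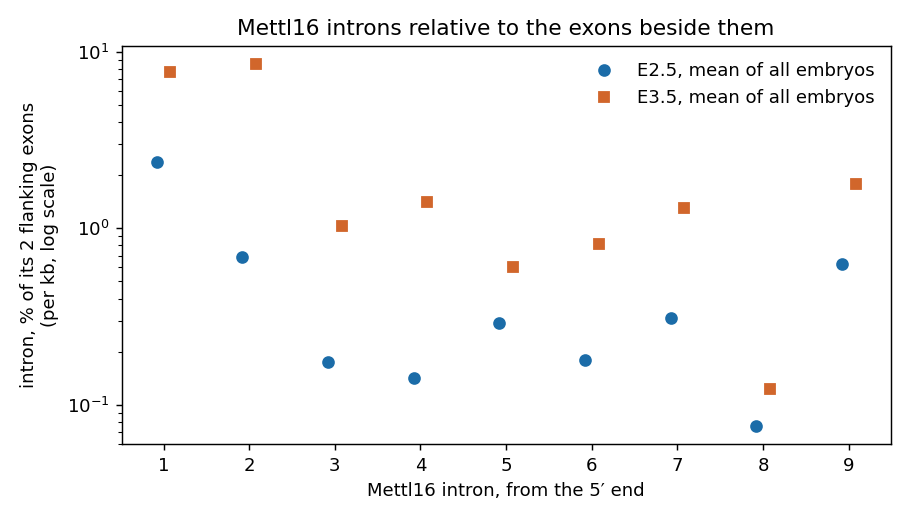
Level per kb of each Mettl16 intron as a percent of the mean level per kb of its 2 flanking exons (log scale), with circles for E2.5 and squares for E3.5. All 9 squares lie above their circles, with the widest gap in intron 2 (0.683% and 8.53%) and the lowest values in intron 8 (0.0757% and 0.122%).

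A larger intron share at E3.5 was also common. Over 7879 genes with introns and summed exon means of at least 100 at both stages, introns had a median of 0.730% of the exon level at E2.5 and 1.30% at E3.5. Mettl16 lay at the 45.1st percentile at E2.5 and at the 64.3rd at E3.5. Its share at E3.5 was 3.29 times its share at E2.5, against a median of 1.79 times, which put it at the 84.7th percentile. Over the 7879 genes the lower quartile of this ratio between stages was 1.12 times, so most of them had a larger share at E3.5. Of the 11 listed methyltransferase and cofactor genes with introns and summed exon means of at least 200, all 11 also had a larger share at E3.5, from 1.04 times (Mettl4) to 7.38 times (Mettl14). Zcchc4 had 5.96 times and Pcif1 3.08 times, and Mettl3 had 1.11 times.

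Parts of some introns are exons of other transcripts of the gene or lie in another gene. In intron 1, 281 bases belong to longer first exons of model transcripts, and in intron 5, 66 bases form an exon of model transcripts. The GENCODE annotation puts 757 bases of intron 6 and 129 bases of intron 8 into exons of further Mettl16 transcripts. Introns 3, 4, 7 and 9 overlap no exon in either annotation. Of these, introns 3, 4 and 7 had 1.50, 3.92 and 3.24 times their E2.5 mean at E3.5.

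Intron 2 holds a predicted small nucleolar RNA gene, LOC115487898, on the plus strand at chr11:74779173-74779313. It is shown because it lies in the intron with the largest sum and the widest gap between the stages, 5.52 kb from the start of the intron and 4.74 kb from its end, and it has 141 bases in the reference genome.
LOC115487898: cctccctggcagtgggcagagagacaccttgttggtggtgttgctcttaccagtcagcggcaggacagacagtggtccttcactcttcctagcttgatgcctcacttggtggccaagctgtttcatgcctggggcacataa
The table gives intron 2 as a single value, so reads of these 141 bases and of the rest of the intron cannot be told apart.

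The neighbouring genes downstream on chromosome 11 were at lower levels. Mnt, which encodes a transcriptional repressor of the MYC network and begins 3.95 kb downstream of the end of the annotated gene, had 67.0 normalized counts at E2.5 and 144 at E3.5, or 14.6 and 31.3 per kb. Sgsm2, which encodes a regulator of small GTPases and lies 22.4 kb downstream, had 42.4 and 35.3 normalized counts, or 8.91 and 7.42 per kb. The nearest annotated genes upstream, Gm40198 (a long noncoding RNA, 32.5 kb away) and Gm24211 (a small nuclear RNA, 42.3 kb away), gave no gene-level value when sought by name.

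The gene-level value and the exon rows were made in different ways. The sum over the exon rows was 1.85 times the gene-level mean at E2.5 and 1.32 times at E3.5, and the 2 tables were counted with different tools and scaled separately. The E3.5 mean was 61.5% of the E2.5 mean by the exon sum and 86.1% at the gene level. All 10 exon means were lower at E3.5, though exon 10 was at 99.6% of its E2.5 mean. The median over all exons was itself 0.755 times the E2.5 mean, and exons 7 and 10 of Mettl16 lay above that median. The median log2 ratio was -0.41 over single exons and 0.55 over genes. No median was taken over exon sums, so the 61.5% has no background of its own here. The size of the difference therefore cannot be compared between the 2 tables.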

How the data were processed

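Single E2.5 and E3.5 embryos were sequenced by the authors as pairs of reads of up to 80 nt from Smart-seq2 libraries without strand. Of these, the 70 libraries with an assigned genotype are described here. The study lists a further E3.5 library whose genotype is not given. The pooled values name no sample, so whether they include it is not known. Per the labels and the study's methods, Salmon 0.7.2 estimated counts on RefSeq transcripts (mm10), which were summed to genes, STAR and featureCounts gave counts per RefSeq exon and intron (introns shortened by 10 nt at both ends), and DESeq2 1.18.1 normalized both. The RefSeq release and the handling of reads with several matches are not given in the sources used here. The deposited signal used here is the mean normalized count over all embryos of a stage. The same tables hold log2 fold changes and adjusted p-values of the authors' own genotype comparisons, which were neither used nor compared with anything here, so genotypes are not compared. No column of values per embryo was used, so the error is unknown and the planned tests could not be run. The pooled means do not show the depth per embryo, and the reads per library that the study lists were not used here. The 4 in vitro methylation libraries hold no Mettl16 value and were not used.

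Exon levels were divided by exon length and intron levels by the length less 10 nt at both ends. Exons were numbered from the 5′ end of each transcript on either strand. Background values used the longest transcript of each gene and left out 272 of 34853 transcripts with repeated or interrupted numbering. Percentiles describe place only. Exon coordinates equalled those of NM_026197 in RefSeq on GRCm38.p6. The insertion point was found from the bases that the study's methods place beside the cassette, which itself comes from the labels. Genes named are Mettl16, the 2 nearest genes on either side and genes within it, Mat2a, and a list of methyltransferase and cofactor genes. The length of Virma was found under an older symbol. The members and lists were chosen with earlier results of these data known. Calculations used Python 3.11.15, numpy 2.4.6 and pandas 2.3.3, and the ratios were tested on simulated transcripts of both strands. Alternatives were other length corrections, subsets of exons and introns, and exon sums.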

Additional observations from a re-analysis of the deposited data

How the results depend on the processing

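Values are given for E2.5 and then E3.5. The sum over exon rows gave 1435 and 883 normalized counts in place of the gene-level 778 and 669. The median exon, 844 and 363 per kb, was 957 and 505 without the first and last exon, and 557 and 274 with 80 nt added to each length. The median intron, 3.10 and 6.28 per kb, was 2.64 and 5.60 with annotated lengths, and 2.65 and 5.95 without the intron that overlaps another gene. The intron to exon ratio, 0.624% and 2.05%, was 0.367% and 1.73% from medians, and 0.272% and 1.43% without the first intron and last exon. Exon 3, at 72.9% and 30.0% of the median of the other exons, was at 79.2% and 68.2% of the mean of exons 2 and 4. The log2 ratio of exons 1 to 3 over exons 7 to 9, -0.56 and -2.18, was -0.40 and -2.02 with 80 nt added, an alternative chosen after seeing the data. Summed and median exon values were lower and summed and median intron values higher at E3.5 under each of these alternatives. Since the values of single embryos were not used, the size of these shifts cannot be set against an error. The comparison of KO with WT, its normalization, filter, HET and leave-one-out alternatives were not run, since only pooled means were used. No paired analysis was possible because the result comes from no test, and the labels give shared numbers only to the in vitro libraries.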
